A study of Danio rerio with 5 samples.

Results

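Semaphorins are extracellular or membrane-bound guidance ligands, and plexins and neuropilins are their receptors. Secreted semaphorins bind a neuropilin that holds a plexin, while most membrane-bound semaphorins bind plexins directly, and the activated plexin changes actin and adhesion in the growth cone. In vertebrate embryos these proteins steer and bundle axons, including those of cranial motor neurons. The genes described here are those whose symbol starts with sema and a digit, with plxna, plxnb, plxnc or plxnd, or with nrp1 or nrp2. They numbered 46 of the 31953 genes counted, made up of 30 semaphorins, 12 plexins and 4 neuropilins. Where duplicated zebrafish genes share a symbol in capitals, the Ensembl identifier is given.

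RNA came from vagus motor neurons of Tg(isl1:Kaede) zebrafish at 28 to 30 hours after fertilisation, a column of hindbrain neurons that sends axons into the branches of the vagus nerve. Kaede, a protein that light turns from green to red, was expressed under isl1 in these fish and was photoconverted at one end of the column, anterior or posterior, and 100 converted cells were picked by hand for each library. There were 2 anterior libraries (B and G) and 3 posterior libraries (B, G and R). The labels give both groups the same genotype, stage and handling and tell them apart by position. They do not explain the letters, of which R occurs among posterior libraries only. Values of a gene are given in the order anterior B and G, then posterior B, G and R. The question was which genes differ between the ends of the column.

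Reads given to genes ran from 14932562 to 20088585 per library, and posterior B detected the fewest genes (10463, against 12241 to 13589 in the others). Motor neuron markers summed to 7011 to 8025 CPM (counts per 1000000 reads, scaled by the trimmed-mean method) in anterior and 7675 to 7795 CPM in posterior libraries, with ISL1 high in all 5. Progenitor markers were also present throughout, at 4355 to 7078 CPM in anterior and 4545 to 6044 CPM in posterior libraries. Blood markers were above 3 counts in 0 of 5 genes and glutamatergic neuron markers in 0 of 2. Inhibitory interneuron markers summed to 71.8 CPM in anterior G and 21.4 CPM at most elsewhere. Muscle markers summed to 0 to 4.31 CPM in anterior and 8.75 to 46.7 CPM in posterior libraries, which did not overlap, and floor plate markers to 0 CPM in anterior and 0 to 36.5 CPM in posterior libraries. Skin markers reached 30.1 CPM, in anterior B, and neural crest and glia markers ran from 52.5 to 191 CPM over the 5 libraries. The part of other cells in the results was not tested. The labels do not say whether libraries came from separate groups of fish, so p-values measure the spread between libraries, which may be partly technical. In a pool of cells, fewer cells that express a gene and less RNA per cell cannot be told apart.

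Among the members with many reads, 1 gene did not overlap between the ends, the co-receptor gene NRP2 (ENSDARG00000038446). It was lower in all 3 posterior libraries than in both anterior ones, as were 12.3% of all tested genes. NRP2 was chosen with earlier results of these data known, so its values and p-values here are a description and no independent test. The other members with many reads, NRP1, PLXNA3, SEMA4C, SEMA5A and SEMA6D, overlapped between the groups. Most remaining members had reads in some libraries and 3 counts or fewer in others. No member passed the adjusted threshold of 0.05 in the edgeR quasi-likelihood test, where the smallest adjusted p among members was 0.683, and 0 of 11827 genes did so (0%). Across all genes 768 had an unadjusted p under 0.05 in the same edgeR test, and DESeq2 called 252 genes at the adjusted threshold.

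Neuropilins are the ligand-binding co-receptors, with little signalling of their own. NRP2, which in mouse binds secreted semaphorins such as Sema3F together with plexin-A3, was at 402 CPM in anterior B and 340.0 CPM in anterior G. In the posterior libraries it was at 32.3 CPM in B, 144 CPM in G and 58.4 CPM in R. Even the highest posterior library was below the lower anterior one. The group values were 371 ± 43.9 CPM (SD, n = 2) and 78.4 ± 58.6 CPM (SD, n = 3). The log2 fold change, posterior minus anterior, was -2.25 ± 0.56 (SE; edgeR unadjusted p 0.00177, adjusted p 0.683). In the 13 alternative fits it ran from -3.00 to -1.86, with unadjusted p-values from 0.000927 to 0.0390, and the adjusted p was never under 0.0656. Leaving out a library could not turn its sign, because every posterior library lay below both anterior ones. The change was as large without either anterior library (-2.13 without B and -2.38 without G).

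NRP1 (ENSDARG00000102153), the co-receptor for secreted semaphorins and also for VEGF, was not lower. It was at 450.3 and 826 CPM in anterior B and G. In the posterior libraries it was at 663, 1013 and 781 CPM. The groups overlapped. The log2 fold change was 0.36 ± 0.35 (SE; edgeR adjusted p 0.855), and -0.013 without anterior B.

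The balance between both genes can be read within each library, where no scaling between libraries enters. Per read of NRP1 there were 0.893 and 0.412 reads of NRP2 in anterior B and G. In posterior B, G and R there were 0.0487, 0.143 and 0.0748. The ratio was lower in all 3 posterior libraries, and the exact permutation test over the 10 splits of 2 against 3 libraries gave its smallest two-sided p, 0.2, so this design cannot reach 0.05 (0.3 after Benjamini-Hochberg adjustment over the 3 ratios computed). As a share of all neuropilin reads, this NRP2 gene took 42.5% and 27.1% in the anterior libraries and 4.64% to 12.0% in the posterior ones.

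**Figure D1:**
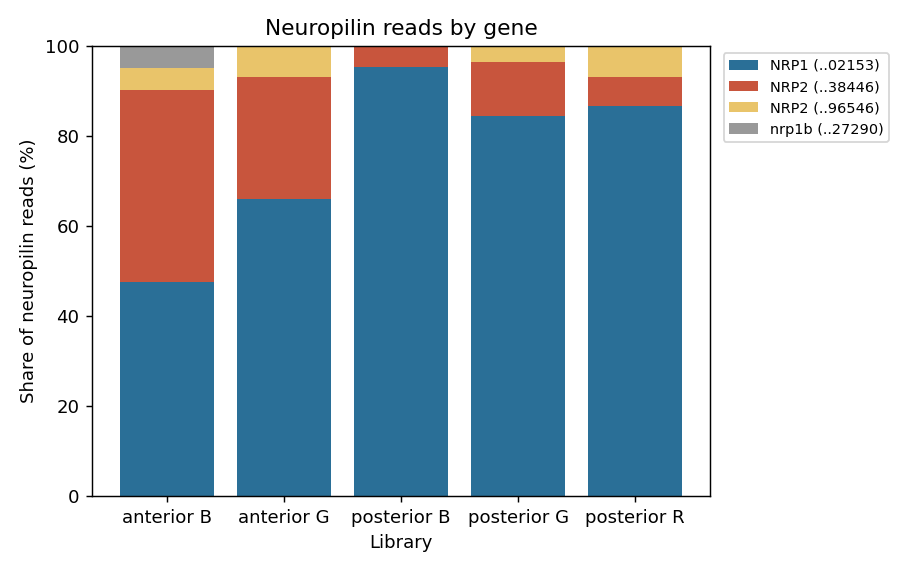
Share of all neuropilin reads (%) taken by each of the 4 neuropilin genes in each library, with duplicates marked by the last digits of their identifier. NRP2 (ENSDARG00000038446) takes 42.5% and 27.1% of the bar in anterior B and G and 12.0% at most in posterior libraries, where NRP1 takes 84.4% to 95.3%.

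The other gene named NRP2 (ENSDARG00000096546) was at 46.3 and 87.0 CPM in anterior B and G. In the posterior libraries it was at 0.195, 43.2 and 61.0 CPM. These groups overlapped, since posterior R lay above anterior B, and the log2 fold change was -0.91 ± 0.90 (SE; edgeR adjusted p 0.855). The 2 duplicates were not shown to differ in their response. Reads of the first per read of the second were 8.68 and 3.91 in the anterior and 166, 3.35 and 0.958 in the posterior libraries (exact permutation test, two-sided p 1.0, also 1.0 adjusted). Per read of NRP1, the second gene gave 0.103 and 0.105 reads in the anterior and 0.000293, 0.0426 and 0.0780 reads in the posterior libraries, so this ratio did not overlap either (exact permutation test, two-sided p 0.2, adjusted 0.3). Reads that aligned to several places were left out of the counts, so the split between near-identical duplicates is uncertain.

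The remaining neuropilin, nrp1b, had 800 counts (47.2 CPM) in anterior B and 2 to 9 counts in the other 4 libraries, and it did not pass the filter on low counts. The endothelial markers, which mark blood vessel cells, stood out in the same library. They summed to 106.8 CPM in anterior B, 0 CPM in anterior G and 0, 22.5 and 0 CPM in the posterior libraries. In anterior B, kdrl had 1645 counts and EGFL7 had 165. In posterior G, EGFL7 had 94 counts and TIE1 had 260. The endothelial genes cdh5, FLI1 and tek were at 0 in all 5 libraries. Of 6 endothelial markers, 3 were above 3 counts in any library, and their part in the nrp1b value was not tested.

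Plexins are the signalling receptors, with a cytoplasmic domain that acts on small GTPases. PLXNA3, which in zebrafish and mouse serves responses of motor and other axons to secreted semaphorins, was at 5.43 CPM in anterior B and 291 CPM in anterior G. In the posterior libraries it was at 82.9, 129 and 140 CPM. The anterior libraries enclosed all posterior values, so the groups overlapped. The log2 fold change was -0.37 ± 0.85 (SE; edgeR adjusted p 0.956), and it became 4.43 without anterior G and -1.30 without anterior B.

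PLXNA4, another receptor of this kind, was steadier. It was at 51.9 and 34.4 CPM in the anterior and 38.2, 17.6 and 12.3 CPM in the posterior libraries. The groups overlapped, and the log2 fold change was -0.95 ± 0.91 (SE; edgeR adjusted p 0.847). The plexin-B gene plxnb3 was at 41.5 and 13.8 CPM in the anterior libraries. It was at 0, 6.08 and 0 CPM in the posterior ones, and the groups did not overlap. Its log2 fold change was -3.80 ± 1.66 (SE; edgeR unadjusted p 0.0388, adjusted p 0.726), and the unadjusted p was under 0.05 without anterior G but 0.187 without anterior B, 0.0793 without posterior B, 0.0566 without posterior G and 0.118 without posterior R. It was also 0.222 with DESeq2 and 0.282 with the legacy form of the edgeR fit.

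**Figure D2:**
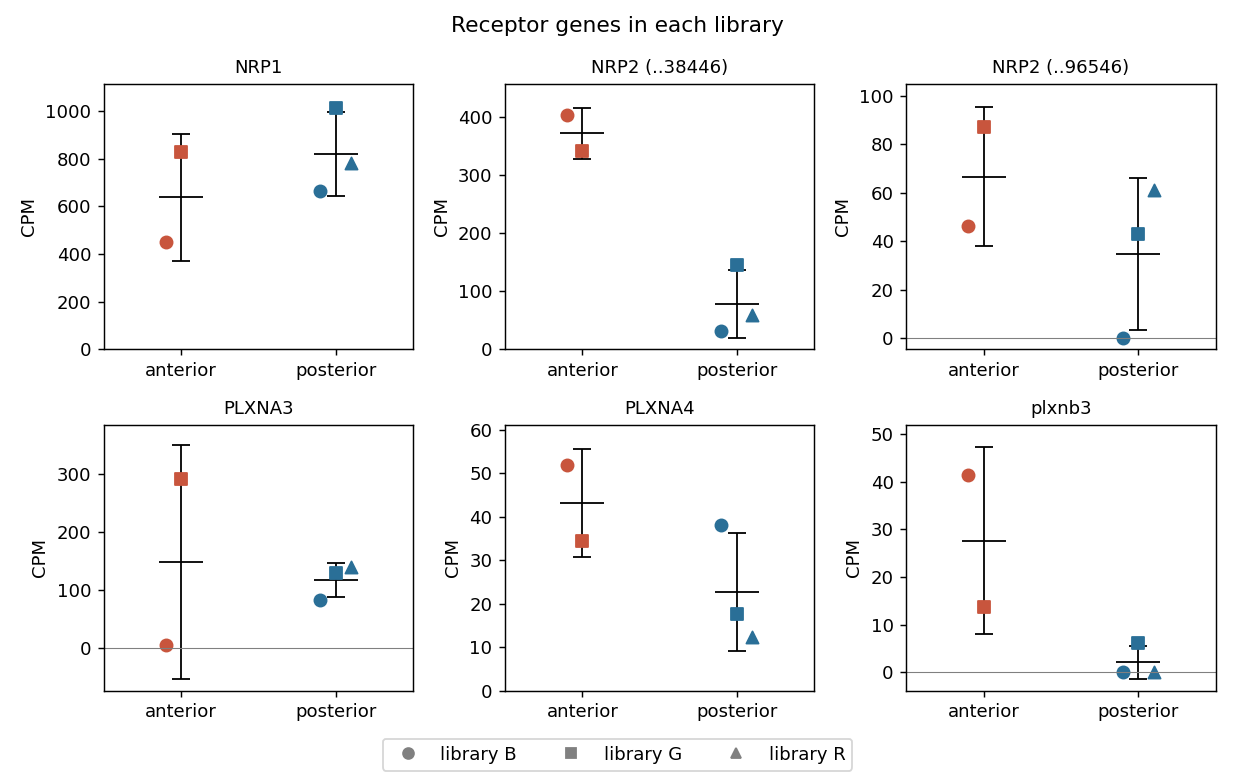
CPM of 6 receptor genes in each library (points, shaped by library letter) with the group mean and SD (bars; n = 2 anterior, n = 3 posterior), each panel on its own linear axis. NRP2 (ENSDARG00000038446) and plxnb3 do not overlap between groups, while for PLXNA3 the anterior points at 5.43 and 291 CPM enclose every posterior point.

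PLXNB1 has 2 genes in the files, and both had at most 1 count in the B libraries. One (ENSDARG00000075821) was at 0.0590 and 40.2 CPM in the anterior and at 0.0649, 22.1 and 29.2 CPM in the posterior libraries. Its log2 fold change was -0.27 ± 1.30 (SE; edgeR adjusted p 0.985). PLXNA2, PLXNC1 and the second PLXNB1 gene had their highest values, 38.2, 28.8 and 20.3 CPM, in anterior G. The vascular receptor plxnd1, which in zebrafish guides vessels away from somites, never passed 6 counts. Of the plexin-B2 genes, plxnb2a.1 had 576 counts in posterior B and 0 elsewhere, and plxnb2a.2, plxnb2a.3 and plxnb2b had 0 counts in all libraries.

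Taking the receptors together, 9 of the 10 tested had a negative log2 fold change, with a median of -1.36. Over all tested genes the median was -0.055 and 52.1% were negative. This direction rests on anterior G: without it, the median of the 12 receptors then tested was 0.61, where the median of all genes was 0.45. An unadjusted p under 0.05 was found for 5 of 28 tested members, where 6.49% of all genes had one. Among the 5 were sema4ab and sema3gb, which passed the filter through anterior libraries only. Their direction was thus fixed beforehand, and the count is given as a description. The 2 receptors among the 5 were NRP2 and plxnb3, both lower in posterior cells. Of all genes, 4.21% had such a p in that direction and 2.28% in the other. This split of all genes turned with DESeq2 (370 lower, 679 higher) and without posterior B (372 lower, 495 higher in the edgeR test). Summed over the 16 receptor genes, the anterior level was 1384 ± 476 CPM (SD, n = 2). The posterior level was 1112 ± 257 CPM (SD, n = 3), a difference within the spread.

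Semaphorins fall into classes by structure, of which class 3 is secreted, classes 4, 5 and 6 span the membrane and class 7 is anchored to it by a lipid. Class 4 genes summed to 249 and 201 CPM in the anterior and 103, 215 and 115 CPM in the posterior libraries. SEMA4C, a ligand of plexin-B2 in mammals, was at 175 and 81.5 CPM in anterior B and G. In the posterior libraries it was at 77.7, 183 and 89.3 CPM. The groups overlapped, and the log2 fold change was -0.13 ± 0.61 (SE; edgeR adjusted p 0.985), with a sign that changed when single libraries were left out.

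SEMA5A had reads in every library within a narrow range. It was at 65.8 and 74.3 CPM in the anterior and 42.4, 62.8 and 81.6 CPM in the posterior libraries. The log2 fold change was -0.16 ± 0.66 (SE; edgeR adjusted p 0.981). SEMA6D, a ligand of plexin-A1 in mammals, was at 4.84 and 131 CPM in the anterior and at 20.4, 262 and 161 CPM in the posterior libraries. It was thus lowest in both B libraries, and the log2 fold change was 1.08 ± 0.96 (SE; edgeR adjusted p 0.828), moving to 4.93 without anterior G and 0.19 without anterior B.

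SEMA4B (ENSDARG00000076104) was at 0 CPM in anterior B and 102 CPM in anterior G, on either side of the 24.9, 31.8 and 25.1 CPM of the posterior libraries. Its log2 fold change was -0.97 ± 1.06 (SE; edgeR adjusted p 0.871). The class 6 gene sema6ba was higher in every posterior library, at 19.7, 9.44 and 18.8 CPM in B, G and R against 8.55 and 2.52 CPM in anterior B and G. The gap between the nearest libraries was small, and the log2 fold change was 1.61 ± 1.34 (SE; edgeR adjusted p 0.810).

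In 4 of 18 tested ligands every posterior library was below both anterior ones, beside 12.3% of all tested genes. The class 4 gene sema4ab had 1136 counts (67.0 CPM) in anterior B, 69 counts (3.41 CPM) in anterior G and no count in posterior cells. Set against the highest posterior floor of 3 counts per library, 0.195 CPM, the mean of the anterior libraries was at least 181-fold higher, a bound that covers counting error only. It rests on anterior B, since anterior G alone gives at least 17.5-fold. It had an edgeR unadjusted p of 0.0149 (adjusted p 0.726), which was 0.207 without anterior B, and DESeq2 gave an adjusted p of 0.00296. The class 3 gene sema3gb had 77 and 62 counts in anterior B and G and 0 counts in the posterior libraries. That is 4.54 and 3.07 CPM, a mean at least 19.6-fold higher than the same floor, with an edgeR unadjusted p of 0.0409, which was 0.222 without anterior B, 0.187 without anterior G, 0.139 with no filter and 0.0515 with DESeq2. It was not tested at a mean CPM of at least 5.

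SEMA5B (ENSDARG00000075648) was at 5.43 and 32.5 CPM in the anterior and at 0, 0 and 1.42 CPM in the posterior libraries. The log2 fold change was -5.19 ± 2.25 (SE; edgeR unadjusted p 0.0421, adjusted p 0.726), and the unadjusted p was 0.301 without anterior G, 0.0762 without posterior B, 0.0980 without posterior G and 0.0779 without posterior R. It was also over 0.05 with no filter (0.0528), at a mean CPM of at least 5 (0.0575), with DESeq2 (0.0921) and with the legacy form of the edgeR fit (0.158). The second SEMA4B gene (ENSDARG00000074414) had 112 and 12 counts in anterior B and G and 0, 1 and 0 counts in the posterior libraries (edgeR unadjusted p 0.113). Of these genes, sema4ab, sema3gb and this SEMA4B gene had no posterior library over the cutoff of the filter on low counts, so they could only have entered the test as genes higher in anterior cells. No member entered through posterior libraries alone.

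Of 12 class 3 genes, 7 were above 3 counts in any library and none in all 5. SEMA3A (ENSDARG00000042210), SEMA3C, SEMA3D and SEMA3E had 0 counts in every library, below a floor of 0.148 to 0.195 CPM per library. The SEMA3F genes had reads in different libraries. One (ENSDARG00000011163) had 1549 counts (91.4 CPM) in anterior B and 0 or 1 count in every other library. The other (ENSDARG00000055373) was at 32.2 CPM in anterior G and 15.1 CPM in posterior R and at 0 to 0.324 CPM in the remaining libraries. SEMA3G was on in anterior B (25.0 CPM) and posterior R (44.0 CPM) and at 0 in the rest. Of the 8 class 4 genes, 5 were above 3 counts somewhere, and sema4aa and both SEMA4G genes were at 0 throughout. All 3 class 5 and all 6 class 6 genes were above 3 counts somewhere. The class 7 gene sema7a was at 36.0 CPM in anterior B, 16.9 CPM in posterior G and 0 CPM in the other 3 libraries.

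**Figure D3:**
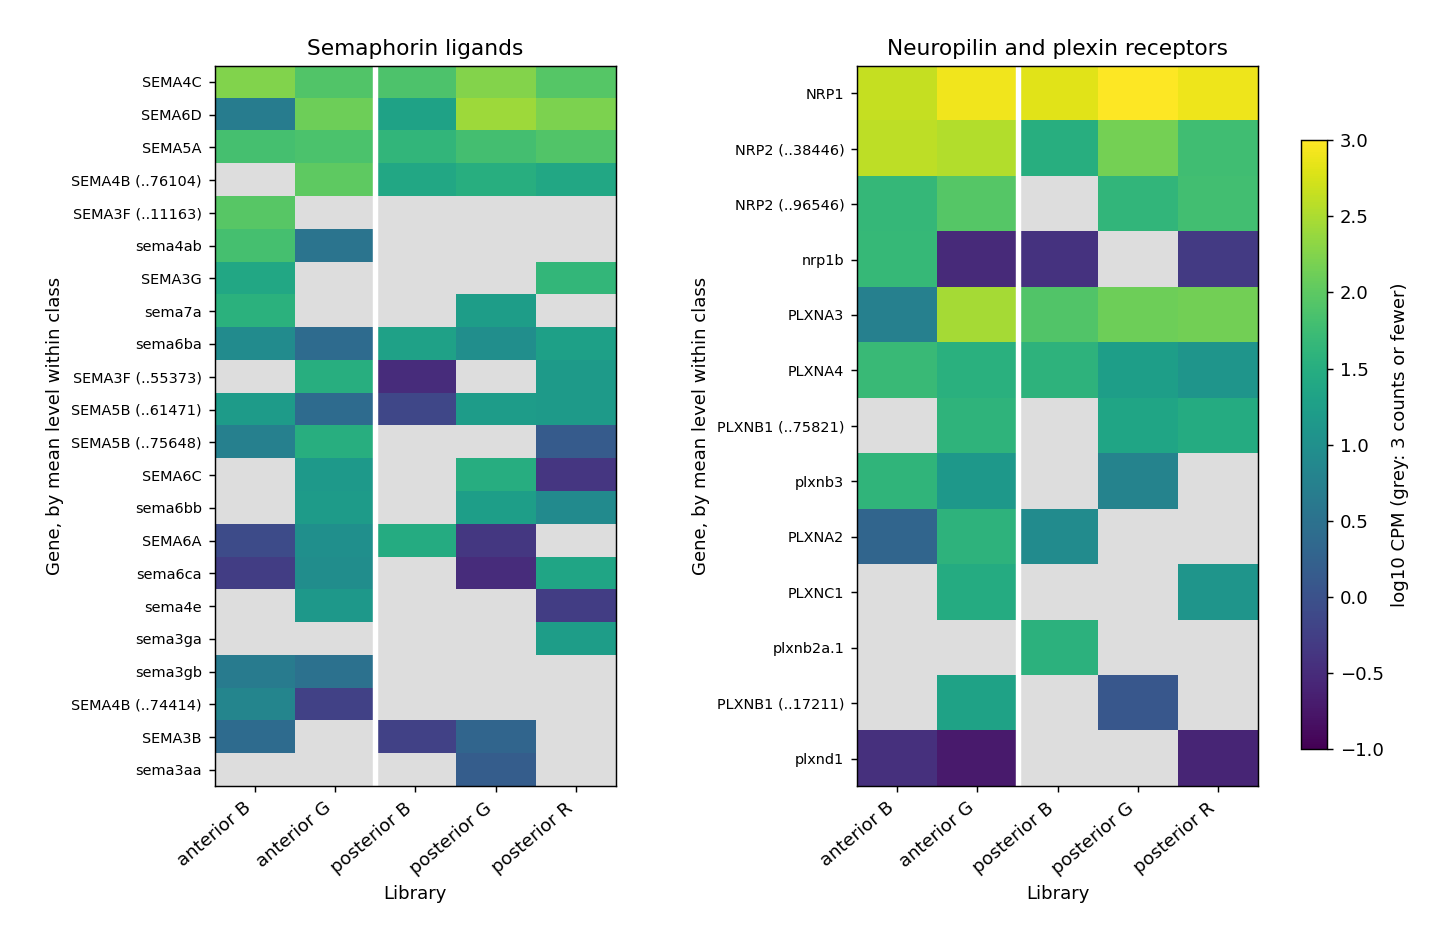
Level of the 35 members with over 3 counts in any library, as log10 CPM by library, ligands on the left and receptors on the right, with grey for 3 counts or fewer and a white line between anterior and posterior libraries. Only 9 rows (5 ligands and 4 receptors) have no grey cell, and the top rows of the receptor panel are NRP1 and NRP2.

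The ligands showed no common direction. Of 18 tested, 8 had a positive and 10 a negative log2 fold change, with a median of -0.14. In 3 ligands (sema4ab, sema3gb and SEMA5B) the edgeR unadjusted p was under 0.05, all lower in posterior cells. Over all genes 4.21% had such a p in that direction and 2.28% in the other. For sema4ab and sema3gb the direction was fixed by the filter, which they passed through anterior libraries only. Setting ligands at 3 counts or fewer throughout 1 group to their bound could not move the ligand median, since they lie below it either way. Summed over the 30 ligand genes, the anterior level was 519 ± 12.5 CPM (SD, n = 2). The posterior level was 451 ± 214 CPM (SD, n = 3), which overlapped with it. The low end was posterior B at 216 CPM and the high end posterior G at 635 CPM.

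Groups that did not overlap were found in 7 of 28 tested members, beside 21.9% of all genes. In 6 of them posterior cells were lower, beside 12.3% of all genes, and in 1, sema6ba, they were higher, beside 9.57%. These members entered the test by a filter that some of them passed only through anterior libraries, so the count is given as a description.

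**Figure D4:**
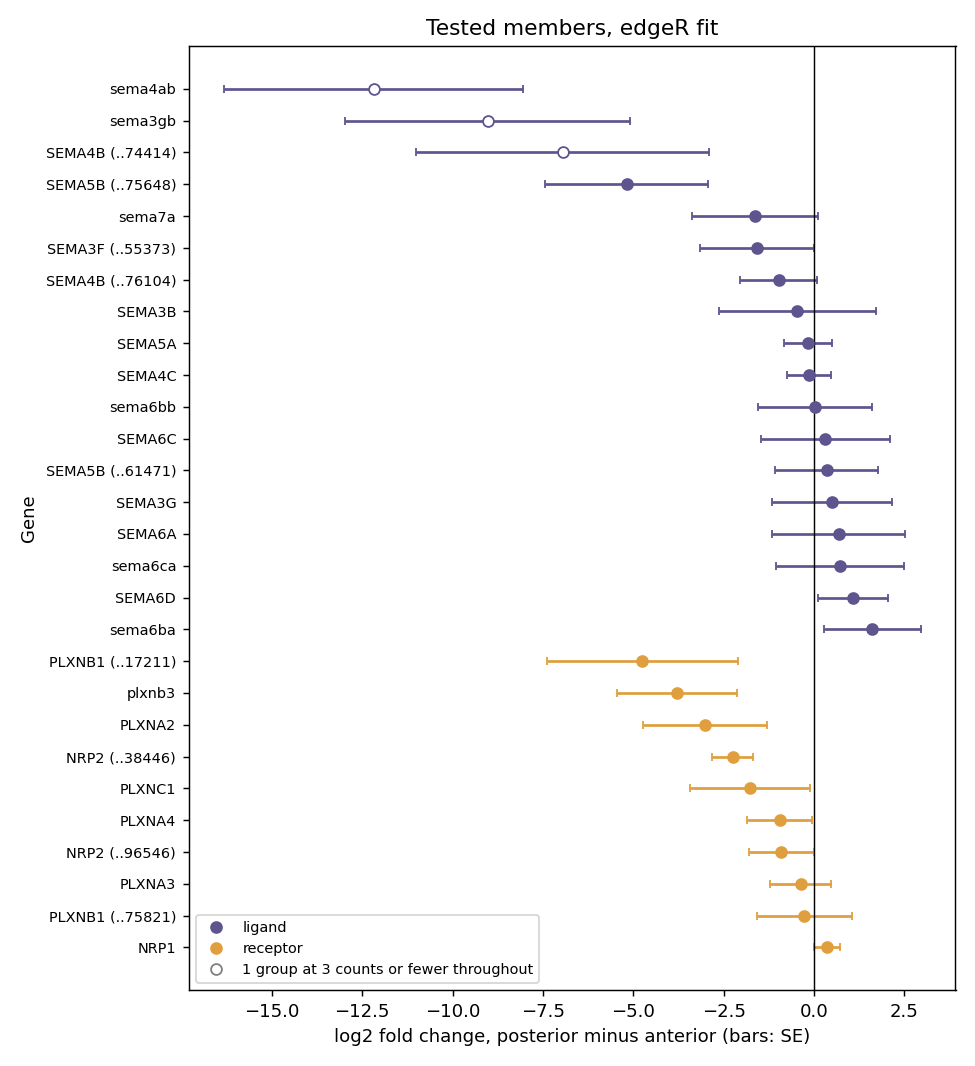
log2 fold change, posterior minus anterior, of the 28 tested members (points) with SE (bars), ligands above and receptors below. Open points mark genes at 3 counts or fewer in every posterior library, whose fitted value is no bound, and NRP2 (ENSDARG00000038446) at -2.25 has the shortest bar among members more than 1 unit from 0.

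Such gaps were counted in members and in all genes of like abundance. Of 28 tested members, 19 had a library at 3 counts or fewer. For members with a mean under 10 CPM this was 12 of 12, where all tested genes of that range gave 82.4%. At 10 to 30 CPM it was 5 of 7, against 66.6%, and at 30 to 100 CPM it was 2 of 4, against 23.4%. All 5 members at 100 CPM or more had over 3 counts in every library. A gap of more than 10-fold between anterior B and anterior G was found in 17 of 28 members, with values under the floor set to it. The share over all tested genes, not matched for abundance, was 26.4%. Anterior G was the higher in 12 of those 17 members (70.6%) and in 66.6% of all genes with such a gap. Posterior B had 16 members above 3 counts, against 21 to 28 in the other libraries.

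**Figure D5:**
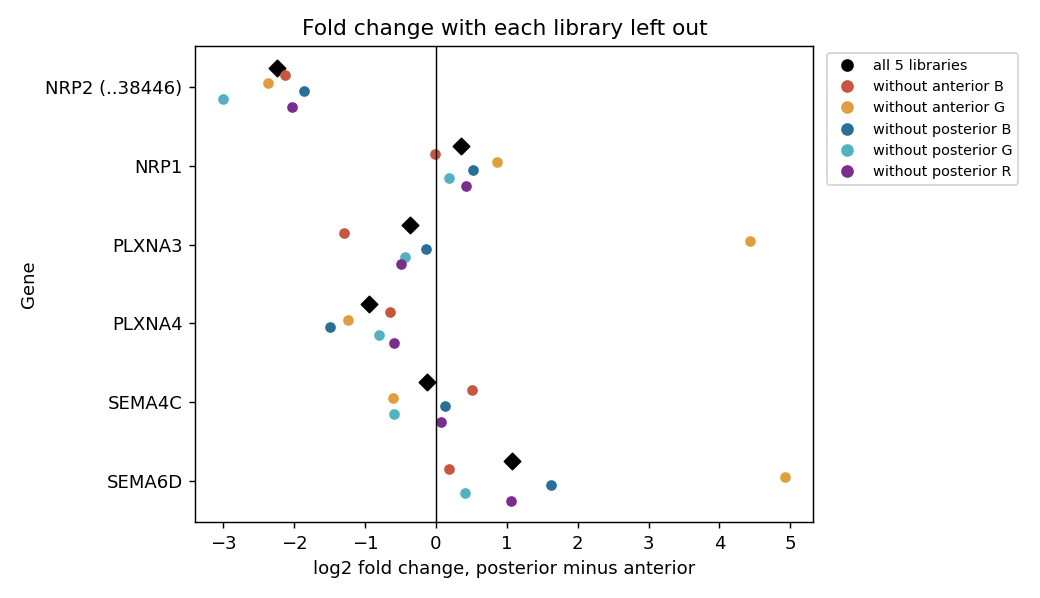
log2 fold change, posterior minus anterior, of 6 members with all 5 libraries (diamonds) and with each library left out in turn (circles). NRP2 (ENSDARG00000038446) stays between -3.00 and -1.86, while PLXNA3 moves to 4.43 and SEMA6D to 4.93 without anterior G.

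Other genes of semaphorin signalling were taken from a list of 66 symbols, which matched 67 genes, 48 of them tested. Of these, 8 were lower and 2 higher in posterior cells at an unadjusted p under 0.05, with 4.21% and 2.28% of all genes as the background in these directions, and 0 passed after adjustment in the edgeR test. DESeq2 called RND3 and chl1b at the adjusted threshold, where it called 252 of all 11827 tested genes. The median log2 fold change of the list was -0.35.

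RND3 (ENSDARG00000076799), a small GTPase of the Rnd group, whose members bind plexins, was at 727 and 1316 CPM in the anterior and at 174, 361 and 171 CPM in the posterior libraries. The groups did not overlap, and the log2 fold change was -2.13 ± 0.42 (SE; edgeR unadjusted p 0.000288, adjusted p 0.359). DESeq2 gave this gene an adjusted p of 0.00200. DPYSL2 and DPYSL3 encode collapsin response mediator proteins, which act on microtubules downstream of secreted semaphorins. DPYSL3 was at 178 and 275 CPM in the anterior and 68.4, 61.2 and 23.6 CPM in the posterior libraries (edgeR unadjusted p 0.00331). DPYSL2 was at 435 and 469 CPM in the anterior and 131, 229 and 239 CPM in the posterior libraries (edgeR unadjusted p 0.0151). Neither gene overlapped between the groups.

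The adhesion molecule gene l1cama, whose mammalian counterpart forms a complex with neuropilin-1, was at 59.5 and 50.9 CPM in anterior B and G. It was at 0, 6.72 and 1.06 CPM in the posterior ones (log2 fold change -4.45 ± 1.27, SE; edgeR unadjusted p 0.00349). cntn2, which encodes an axonal contactin, was at 95.6 and 62.1 CPM in the anterior and 19.5, 1.46 and 12.1 CPM in the posterior libraries (edgeR unadjusted p 0.00906). MET, the receptor for hepatocyte growth factor, which can associate with plexin-B proteins in mammalian cells, was at 111 and 322 CPM in the anterior libraries. It was at 0, 64.4 and 24.5 CPM in the posterior ones (log2 fold change -2.89 ± 0.83, SE; edgeR unadjusted p 0.00453), and the unadjusted p was 0.105 without anterior G, 0.117 with DESeq2, 0.0958 with limma-voom and 0.188 with the legacy form of the edgeR fit. In that legacy form it was also over 0.05 for l1cama (0.105) and cntn2 (0.0680). All 3 genes were lower in every posterior library.

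The 2 genes of the list higher in posterior cells at an edgeR unadjusted p under 0.05, named after their values were seen, were chl1b and LIMK2. chl1b, a relative of l1cama, was at 106 and 122 CPM in the anterior and 243, 287 and 260.0 CPM in the posterior libraries (log2 fold change 1.20 ± 0.47, SE; edgeR unadjusted p 0.0238). DESeq2 gave it an adjusted p of 0.0403, and in the edgeR test its unadjusted p was not under 0.05 without anterior B, posterior G or posterior R. LIMK2, an actin-regulating kinase, overlapped between the groups (edgeR unadjusted p 0.0437), and of the 5 libraries left out in turn, the p was under 0.05 only without posterior G. Single genes of the motor neuron marker list went both ways. The axonal filament gene PRPH had a log2 fold change of -2.24 ± 0.55 (SE; edgeR unadjusted p 0.00156). RET was also lower in posterior cells, at -1.11 ± 0.48 (SE; edgeR unadjusted p 0.0394). PHOX2A was higher, at 2.02 ± 0.87 (SE; edgeR unadjusted p 0.0384). Among the other tested markers of that list both signs occurred, and the summed motor neuron markers overlapped. The part of neuron maturity in these values was not tested.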

How the data were processed

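The authors deposited raw counts of reads for each Ensembl gene, in a separate file for each library and not normalized. Per the submitters' processing notes, bcl2fastq 1.8.4, TopHat2 2.1.0 and HTSeq 0.6.1 were used with build GRCz10. Neither the annotation release nor how strand was used is given in the sources used here. Libraries were made with SMART-Seq v4 and Nextera XT from total RNA, per the labels. Reads given to genes were 69.0% to 72.5% of those counted, and 16.5% to 20.3% aligned to several places and entered no gene count. These and the other lines that name no gene were left out of library sizes. No molecular identifiers are described, so floors cover counting error only. Further libraries of the series were not analysed here.

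Libraries were grouped by source name, and the second letter of the title (B, G or R) names the replicate. A reference table gave symbols for 26121 of 31953 identifiers. Of 48 identifiers with a member symbol, 46 were in the files.

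The edgeR quasi-likelihood test (edgeR 4.0.16 in R 4.3.3, glmQLFit with legacy set to false) was fitted on all genes kept by filterByExpr (minimum count 10, minimum total 15), with trimmed-mean factors. P-values are two-sided, with Benjamini-Hochberg adjustment over 11827 genes and a threshold of 0.05. Each SE was taken as the absolute log2 fold change over the root of its F statistic, an approximation. CPM values use the same factors, with a scale of 1000000. Ratios were tested with scipy 1.17.1. The fits were tested on simulated data. Recovery of the changed genes was required only at a spread set lower than that of these data, so it gives no power for them. Members, lists and tests were chosen with earlier results of these data known, NRP2 among them. Values in every library are given for NRP2, members with an unadjusted p under 0.05 or groups that do not overlap, and the 6 ligands and 6 receptors with the highest mean. For the pathway list they are given for the 6 genes with the smallest p. A likeness of genes to NRP2 across 5 libraries was not computed, since 5 are too few. Alternatives were median-of-ratios (RLE) factors, no filter, DESeq2 1.42.0, genes over a mean CPM of 5, limma-voom (limma 3.58.1), the legacy form of glmQLFit, the replicate letter as a block over 4 libraries, the same 4 libraries without it, and each library left out. Levels are not compared between genes per length, as no transcript lengths of the build used were at hand.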

Additional observations from a re-analysis of the deposited data

How the results depend on the processing

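Over the 13 alternatives to the fit with all 5 libraries, the adjusted p of NRP2 (ENSDARG00000038446) ran from 0.0656 (DESeq2) to 0.968. Its sign changed in none, and leaving out a library could not change it, since its groups did not overlap. The 4 libraries without the block are the same fit as that without posterior R. Genes past the adjusted threshold of 0.05 (0) numbered 252 with DESeq2 and ranged from 0 to 7 with a library left out (1 without anterior B, 7 without anterior G). The count with an unadjusted p under 0.05 (768) ranged from 502 to 1009 with a library left out. With the replicate letter as a block it was 211 of the 10770 genes then tested (1.96%). In that fit the counts were 0 of 15 ligands, 1 of 9 receptors and 5 of 45 pathway genes. The same 4 libraries without the block gave 524 of 10770 genes (4.87%). Among them were 2 of 15 ligands, 1 of 9 receptors and 8 of 45 pathway genes, so the block lowered all of these counts but that of receptors. The deviations of same-letter libraries from their group means had a correlation of -0.0019 for B and 0.0063 for G. With 2 anterior libraries the anterior deviations mirror each other, so these correlations cannot decide whether libraries of a letter share an origin. The main fit uses the letters as names only. Ligands with an unadjusted p under 0.05 (3 of 18) numbered 1 of 18 with DESeq2, where 8.87% of all tested genes had one. Receptors (2 of 10) numbered 1 of 10 with DESeq2 and with the legacy form, where the share of all genes was 4.78% in the legacy form. With a posterior library left out receptors numbered 1 or 2, where 4.55% to 7.59% of all genes had such a p. Pathway genes (10 of 48) numbered 6 of 48 with the legacy form. The receptor median (-1.36) ran from -1.59 to 0.61 with a library left out. The summed receptor level, posterior over anterior, was 0.803 and became 0.392 without NRP1. The direction of all genes with an unadjusted p under 0.05 (498 lower, 270 higher in posterior cells) turned with DESeq2 (370 lower, 679 higher) and without posterior B (372 lower, 495 higher). The 10 pathway genes DESeq2 gave were not the 10 of edgeR, since MET left and PAK2 entered. Without anterior B the median of all genes was 0.16.

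Log2 fold changes that changed sign were the following. SEMA4C was 0.050 with the replicate block, 0.071 with 4 libraries, and -0.60 to 0.51 with a library left out. SEMA5A ran from -0.39 to 0.078, NRP1 from -0.013 to 0.85, PLXNA3 from -1.30 to 4.43, PLXNB1 (ENSDARG00000075821) from -1.17 to 8.06 and SEMA4B (ENSDARG00000076104) from -1.90 to 11.8 with a library left out. With limma-voom, PLXNA3 was 1.22, PLXNB1 1.12 and SEMA4B 3.91, and with the block PLXNA3 was 0.36. The cause of these changes was not tested. At 10 to 30 CPM, 21.0% of values over all tested genes were at 3 counts or fewer, which limits what a low posterior value of a rare member can show.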
